A study of Rattus norvegicus with 12 samples.

Results

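The direct contrast of estradiol (E2) with growth hormone (GH) in the liver of TXOX rats was examined on 8 of the 12 arrays of the series, the 4 TXOXE2 arrays and the 4 TXOXGH arrays. TXOX rats were male Sprague-Dawley rats made hypothyroid with methimazole (0.05% in the drinking water for 5 weeks) and castrated 2 weeks after its start. TXOXE2 rats received E2 benzoate at 50 µg/kg on 5 days per week over 27 days. TXOXGH rats received vehicle and then GH at 0.3 mg/kg per day for the last 7 days, as a pair of daily injections. The remaining 4 arrays came from TXOXE2GH rats, given both hormones. All animals were adult (3 months) and were killed on postnatal day 94. For TXOXE2 rats this was 24 h after the last injection, and for TXOXGH rats 12 h. Length of treatment and time after the last injection therefore differed between the groups, and their part in a difference cannot be told apart from that of the hormone. Each array carried the RNA of 1 treated animal in Cy5 and RNA of vehicle-treated TXOX rats in Cy3, an assignment that rests on the channel descriptions, since both source fields name the treated group.

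GH acts on hepatocytes through its receptor, the kinase JAK2 and transcription factors of the STAT family, above all STAT5b, and is the main driver of hepatic IGF-I. In rodents the pattern of GH secretion, pulsatile in males and more continuous in females, sets much of the sex difference in liver gene expression. Estrogens act on the liver through estrogen receptors in the hepatocyte, through the pituitary secretion of GH, and through inhibitors of GH signalling of the SOCS family. Thyroid hormone and gonadal steroids modulate the same axis, and both were low in the TXOX model. Which genes the probes of this array represent is not given in the sources used here, so the results are described by probe, no gene list could be read, and the liver label could not be checked against cell type markers.

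The arrays carried 26962 different probes for rat transcripts, each a long oligonucleotide. A probe was tested when it had a value on at least 3 arrays of each group. The measured quantity was the log2 ratio of the treated sample to TXOX, and the contrast was the mean of TXOXE2 minus the mean of TXOXGH, in which a dye effect that is the same on all arrays cancels. Unflagged probe spots numbered 19343 to 20882 on the TXOXE2 arrays and 21261 to 22346 on the TXOXGH arrays. Spots with over 50% of their pixels above local background plus 2 SD in Cy5 numbered 6506 to 12155 on the TXOXE2 arrays and 10475 to 16162 on the TXOXGH arrays. In Cy3, which carried TXOX RNA in both groups, they numbered 11437 to 12847 and 13284 to 14523. The ranges overlapped in Cy5, but not in Cy3 or for unflagged spots, and the GH arrays had the higher counts. This difference in detection coincides with the treatment groups, and its part in the results was not tested. Over all probes the log2 ratios of single arrays correlated by 0.42 to 0.55 within TXOXE2 and by 0.34 to 0.50 within TXOXGH. The 12 control oligonucleotides, each printed 11 or 12 times, differed between E2 and GH by −0.12 to 0.33 on the log2 scale, and their spots on 1 array had SDs of 0.288 to 0.608 (median over the 8 arrays).

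Liver RNA after E2 and after GH differed for 209 of 18879 probes tested (1.11%, limma, adjusted p under 0.05), while 2370 had an unadjusted p under 0.05. Of these 209, 78 probes were higher after E2 than after GH (0.413% of those tested) and 131 were lower (0.694%). The median difference was 1.11 among the higher probes and −1.06 among the lower probes (median standard errors 0.21 and 0.20), against a median size of 0.17 over all probes tested. A size of at least 1, or 2-fold, was reached by 45 probes in the higher set and by 72 in the lower set. The directions differed most at the far end. A difference of at least 2 in size was measured for 4 higher and 22 lower probes, and one of at least 4 for 0 higher and 8 lower probes. The smallest called difference was 0.60 in size. The 20 probes with the highest adjusted p below the limit had differences of 0.60 to 3.02 in size, and the 20 just past it had 0.58 to 3.48. When only probes above background in either channel on at least 3 arrays of each group were tested, 206 were called, among them all 176 of the 209 that remained in the test.

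**Figure D1:**
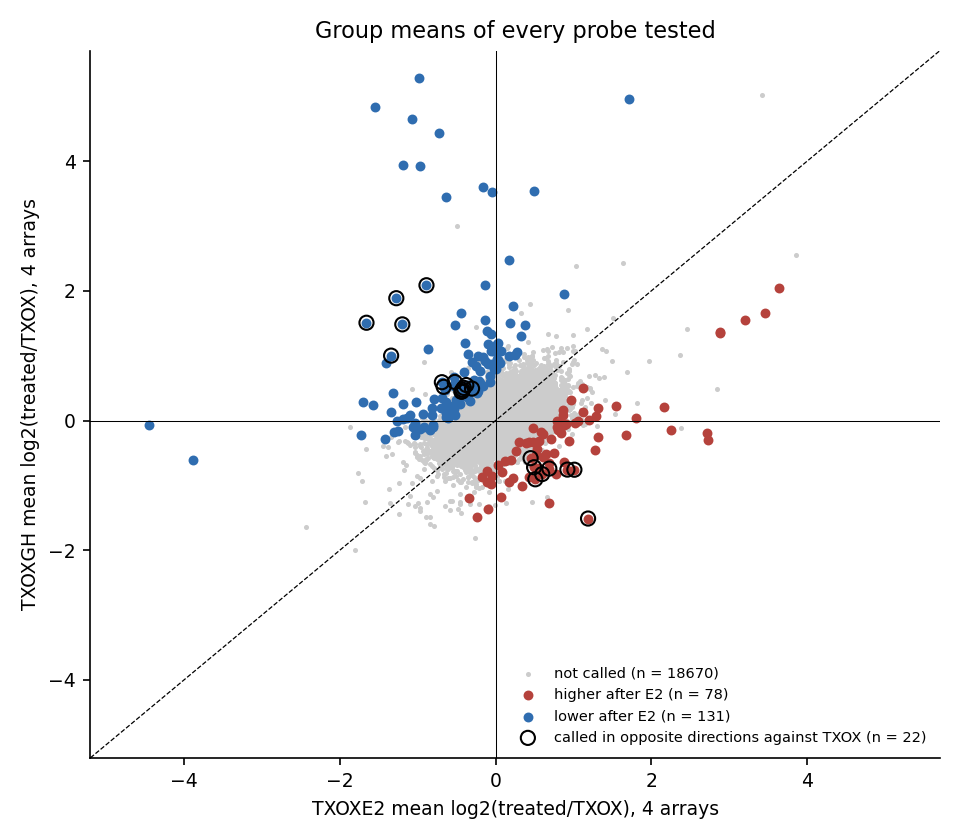
Mean log2 ratio to TXOX after E2 (x axis, 4 arrays) and after GH (y axis, 4 arrays) for each of the 18879 probes tested. The dashed line marks equal means. The 131 probes lower after E2 (blue) reach 5.27 after GH and −4.45 after E2, the 78 higher after E2 (red) reach 3.64 after E2, and circles mark the 22 probes called in opposite directions against TXOX.

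The values of the E2 and GH arrays did not overlap for 208 of the 209 probes, and for 8.77% of all probes tested. The probes were chosen on these same arrays, so nothing is read from this count. The exception was Rn30009637, chosen for mention after its values were seen, with log2 ratios of 1.69, 0.49, 0.97 and 3.67 after E2, against 3.62, 4.91, 6.55 and 4.72 after GH. The probes were brighter than most, with median log2 intensities of 8.91 (higher after E2) and 9.06 (lower after E2), against 8.16 over all tested. In Cy5, 26 of the lower probes were not above local background on any E2 array while they were on at least 1 GH array. The reverse held for 8 of the higher probes, and 3 higher and 1 lower probe were above background on no array of either group. For 42 higher and 48 lower probes the Cy5 spot was above background on all 8 arrays. Spots of 12 probes had saturated pixels on at least 1 of the 8 arrays, so that their ratios are not exact.

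The count depended on the number of arrays. When 1 array was left out, 107 to 158 probes passed, with the count over 1.5 times smaller without TXOXE2 replicate 1 (128), TXOXE2 replicate 3 (107), TXOXGH replicate 1 (121), TXOXGH replicate 2 (136) or TXOXGH replicate 3 (121). In all 8 of these fits 79 of the 209 probes were called, and in each fit the probes that could be tested kept their sign. The higher probes also fell to 50 without TXOXGH replicate 4, and the lower probes to 85 without TXOXE2 replicate 4.

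The largest differences belonged to probes at or below the level of TXOX after E2 and far above it after GH. Rn30008458 had log2 ratios of −1.72, −0.13, −2.65 and −1.72 after E2, against 3.37, 6.0, 5.56 and 4.38 after GH. All E2 arrays were negative and all GH arrays strongly positive, a difference of −6.38 (SE 0.81, limma-adjusted p = 0.000644). Its spot had saturated pixels on 4 of the 8 arrays. Rn30016143 had −1.29, 0.31, −2.12 and −0.82 after E2, against 3.52, 5.48, 7.85 and 4.23 after GH, a difference of −6.25 (SE 0.82, limma-adjusted p = 0.000696), with saturated pixels on 3 of the 8 arrays. Rn30023060 gave −1.51, 0.33, −2.09 and −1.0 after E2, against 3.30, 5.4, 5.88 and 4.02 after GH. Its difference was −5.72 (SE 0.71, limma-adjusted p = 0.000492), with saturated pixels on 4 of the 8 arrays. In these probes E2 replicate 2 was the highest of the E2 arrays, and the GH arrays spread over more than 2 log2 units. The groups did not overlap in any of the 3.

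The same pattern was found in several probes further down. Rn30023084 had −1.38, 0.35, −1.5 and −0.38 after E2, against 3.35, 4.61, 6.25 and 3.50 after GH, with saturated pixels on 1 of the 8 arrays. R001966_01 had −0.77, −0.48, −0.10 and −1.21 after E2, against 3.18, 2.91, 4.36 and 3.34 after GH. Rn30016077 had −0.53, 0.31, −0.13 and −0.30 after E2, against 3.53, 3.08, 5.00 and 2.80 after GH. The differences were −5.16, −4.09 and −3.76, and in none of these did the E2 mean differ from TXOX at an adjusted p under 0.05. Rn30023386 was above background in Cy5 on no E2 array and on all 4 GH arrays, so its difference of −3.56 (adjusted p = 0.000696) is not exact. R002975_01 had 0.45, 0.09, 0.51 and 0.90 after E2, against 4.28, 3.31, 4.48 and 2.11 after GH. It was likewise above background in Cy5 on no E2 array, and in Cy3 on 0 of the 8 arrays, so its ratios to TXOX are not exact. The probe was at least 5.00-fold lower after E2 (limma-adjusted p = 0.00925). This bound sets the mean Cy5 signal of the GH arrays, scaled between arrays, against the lowest Cy5 signal above background on each E2 array or the spot's own signal where that is higher. The Cy3 channel enters this bound through the normalization and the scaling, which use both channels. Bounds below were computed in the same way. Among the 26 lower probes above background in Cy5 on no E2 array and at least 1 GH array, bounds ran from 0.75-fold (Rn30000839) to 14.1-fold (Rn30001789). For the 8 higher probes with the reverse detection they ran from 1.28-fold (Rn30011487) to 5.59-fold (Rn30004193). A bound near or below 1 sets no fold difference.

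A smaller number of large differences came from a fall after E2. Rn30001789 had log2 ratios of −4.74, −3.26, −4.75 and −5.06 after E2, against 0.29, −0.42, −0.32 and 0.17 after GH, so that GH livers were close to TXOX and E2 livers far below it. The difference was −4.38 (SE 0.36, limma-adjusted p = 1.02e-05). Its spot was above background in Cy5 on all GH arrays and on no E2 array, which made it at least 14.1-fold lower after E2. R000191_01 had −3.52, −2.91, −4.24 and −4.84 after E2, against 0.49, −0.92, −1.94 and −0.04 after GH, and was at least 4.34-fold lower after E2 (adjusted p = 0.00308). In TXOXE2GH livers the mean log2 ratio was −1.76 for Rn30001789 and −3.29 for R000191_01, the first between the means of E2 and GH and the second near that of E2.

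Among the 12 largest lower differences, which ranged from 3.06 to 6.38 in size, 10 probes were called higher than TXOX after GH and 4 were called lower than TXOX after E2. GH replicate 3 was the highest GH array for 8 of these 12 probes, and E2 replicate 2 the highest E2 array for 9. Over all 121 lower probes with 8 values, GH replicate 3 was the highest for 39 and E2 replicate 2 for 45. E2 replicate 2 was also the array with the fewest spots above background in Cy5 (6506). Whether this bears on its values was not tested. Rn30005166 and Rn30008331, each without a value on E2 replicate 2, had differences of −5.13 and −4.89, and were named after their values were seen. Rn30005166 was above background in Cy5 on no E2 array, and was at least 11.6-fold lower after E2.

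**Figure D2:**
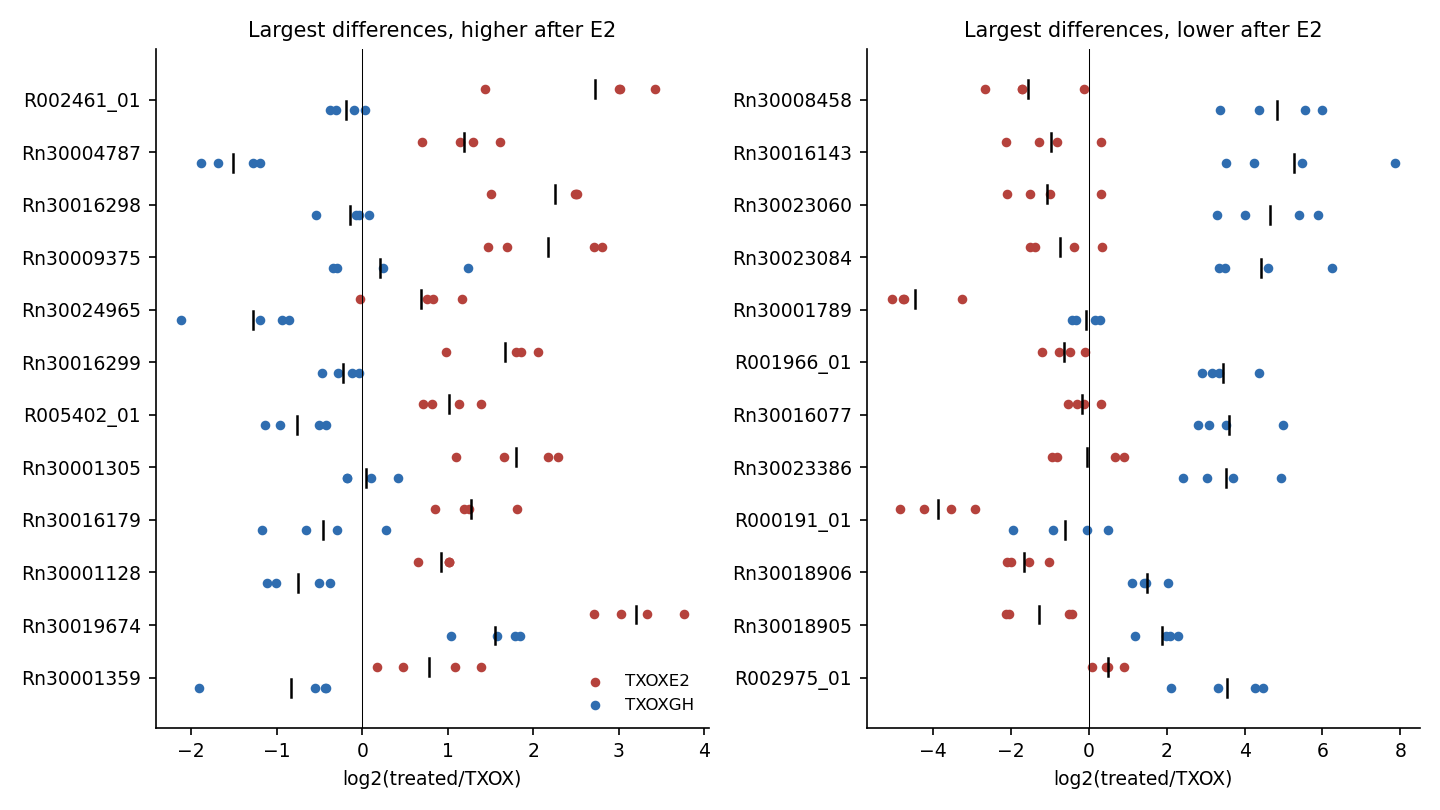
Log2 ratio to TXOX on each of the 4 TXOXE2 arrays (red) and 4 TXOXGH arrays (blue) for the 12 largest differences in each direction among called probes with 8 values, at least 1 group above background in Cy5 or Cy3 on all its arrays, and no overlap. Black bars are group means. On the left the E2 points lie to the right of the GH points for each probe, and on the right panel the GH points reach 7.85.

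The largest differences among probes higher after E2 than after GH were smaller than those among the lower probes, and 57 of the 78 were called above TXOX after E2. R002461_01 had log2 ratios of 3.01, 1.44, 3.42 and 3.00 after E2, against −0.31, 0.04, −0.38 and −0.10 after GH. GH livers were at the level of TXOX and all E2 arrays above it, a difference of 2.91 (SE 0.31, limma-adjusted p = 0.00014). Rn30016298 had 2.50, 1.5, 2.48 and 2.51 after E2, against −0.07, −0.03, −0.54 and 0.08 after GH, a difference of 2.39 (SE 0.23, limma-adjusted p = 3.59e-05). Rn30016299 gave 1.80, 0.98, 1.86 and 2.05 after E2, against −0.48, −0.13, −0.04 and −0.28 after GH. In these 3 probes E2 replicate 2 was the lowest of the E2 arrays and still above each GH array.

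Rn30001305 had 2.17, 2.28, 1.09 and 1.65 after E2, against −0.17, −0.18, 0.41 and 0.10 after GH, with a difference of 1.76. Rn30024965, the brightest of the 12, showed the other form. It had 0.76, −0.03, 1.17 and 0.83 after E2, against −0.93, −1.19, −2.12 and −0.86 after GH, and was called lower than TXOX after GH but not called after E2 (adjusted p = 0.0666). Rn30009375, Rn30016179 and Rn30001359 were the least secure of the 12 largest higher differences, with adjusted p of 0.029, 0.0159 and 0.0427, and were called in 3, 5 and 1 of the 8 fits that each leave out 1 array. The 12 ranged from 1.61 to 2.91. Of them, 11 were called higher than TXOX after E2 and 4 lower than TXOX after GH. Rn30004193 had a fitted difference of 3.02 that is not exact, since its spot was above background in Cy5 on 3 E2 arrays and no GH array, and 1 GH array had no value. It was at least 5.59-fold higher after E2, with log2 ratios of 3.83, 0.05, 3.21 and 3.8 after E2, against −0.35, −0.48 and −0.06 on the other GH arrays. Its Cy3 spot was above background on 0 of the 8 arrays. The limma-adjusted p was 0.0454, and the probe was called in 1 of the 8 fits that each leave out 1 array. It was named after its values were seen.

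Which hormone moved a probe away from TXOX was read from the means of each group. In this reading a dye effect does not cancel, and both groups are set against TXOX RNA. Whether it came from the same TXOX animals for both is not given in the sources used here. Among all probes tested against TXOX, 9.21% were called higher and 9.46% lower after E2 (limma, adjusted p under 0.05), and 4.14% were called higher and 2.85% lower after GH. Of the 78 probes higher after E2 than after GH, 57 were called above TXOX after E2 and 28 below TXOX after GH. Of the 131 lower probes, 64 were called below TXOX after E2 and 80 above TXOX after GH. These counts are shaped by the contrast that chose the probes, and nothing is read from them beyond their size.

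By combination, 43 of the higher probes were called above TXOX after E2 alone, with median means of 0.87 after E2 and −0.17 after GH. A further 19 were called below TXOX after GH alone, with medians of 0.08 after E2 and −0.88 after GH. Among the lower probes, 62 were called above TXOX after GH alone (medians −0.14 after E2 and 1.04 after GH), and 50 below TXOX after E2 alone (medians −0.81 after E2 and 0.13 after GH). In all, 93 probes were called against TXOX after E2 alone, 81 after GH alone, 22 in opposite directions after both, 11 in the same direction after both and 2 after neither. These combinations were not counted over all probes tested. The choice of the probes favours opposite calls over calls in the same direction, so nothing is read from 22 against 11. A call in 1 group and not in the other is no test of a difference, but here the difference itself was called for each probe. A missing call does not show that a hormone left the probe at the level of TXOX. Rn30001359, called after E2 alone, had means of 0.78 after E2 and −0.83 after GH (limma-adjusted p = 0.0453 and 0.0604).

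The signs of the group means were opposite for 150 of the 209 probes and the same for 59. A choice by the difference of these means favours opposite signs. The share over all probes tested was not counted, so nothing is read from this split. Of the higher probes, 54 had a positive mean after E2 and a negative mean after GH, 16 were positive after both and 8 negative after both. Of the lower probes, 96 were negative after E2 and positive after GH, 20 were positive after both and 15 negative after both. Many of these means were small, so that the sign of a single mean is often not separated from 0. Opposite signs were found for 94 called probes without TXOXE2 replicate 1, 73 without TXOXE2 replicate 3, 84 without TXOXGH replicate 1 and 87 without TXOXGH replicate 3.

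The 22 probes called in opposite directions against TXOX comprised 8 higher after E2 and lower after GH, and 14 lower after E2 and higher after GH. The 8 had means of 0.45 to 1.19 after E2 and of −1.51 to −0.58 after GH. The 14 had means of −1.66 to −0.30 after E2 and of 0.44 to 2.09 after GH. For all of the 8 and for 13 of the 14, every E2 array had one sign and every GH array the other. The exception was Rn30005418, with −0.80, 0.25, −1.45 and −1.55 after E2, against 2.39, 1.94, 2.71 and 1.30 after GH and saturated pixels on 1 of the 8 arrays. Among the 14, Rn30010161, R000210_01 and Rn30010380 were above background in Cy5 on no E2 array, so their E2 ratios are not exact. Their bounds were 0.98-fold, 1.39-fold and 2.26-fold.

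Rn30004787 had the widest opposite movement among the 8, with 1.61, 0.70, 1.15 and 1.29 after E2, against −1.27, −1.69, −1.20 and −1.88 after GH. Its Cy5 spot was above background on all E2 arrays and no GH array, and its level was at least 3.59-fold higher after E2 (limma-adjusted p = 0.00014). Rn30001128 was at least 2.68-fold higher after E2 by the same measure, with 1.01, 1.01, 1.01 and 0.65 after E2, against −1.01, −1.12, −0.38 and −0.51 after GH. Rn30016236, a bright spot above background on all 8 arrays, had 0.55, 0.60, 0.62 and 0.26 after E2, against −0.63, −1.01, −1.01 and −0.97 after GH, a difference of 1.42 (SE 0.15).

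Rn30018906 had the widest opposite movement among the 14, with −1.52, −1.03, −2.00 and −2.08 after E2, against 1.10, 2.02, 1.48 and 1.43 after GH, a difference of −3.16 (SE 0.38, limma-adjusted p = 0.000334). Rn30018905 was close to it, with −0.42, −0.51, −2.04 and −2.12 after E2, against 1.18, 1.99, 2.30 and 2.08 after GH. R001618_01 had −1.61, −0.68, −1.09 and −1.41 after E2, against 1.11, 1.51, 1.57 and 1.73 after GH, and among the 14 it had the lowest adjusted p (1.02e-05). R003093_01 had −1.12, −0.64, −0.29 and −0.71 after E2, against 0.69, 0.49, 0.55 and 0.63 after GH, so that a moderate difference of −1.28 was measured with narrow GH values. The number called in opposite directions was 14 under a loess per printed block and 45 with only the 8 arrays in the fit. It was 14 without TXOXE2 replicate 3 and 13 without TXOXGH replicate 4.

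**Figure D3:**
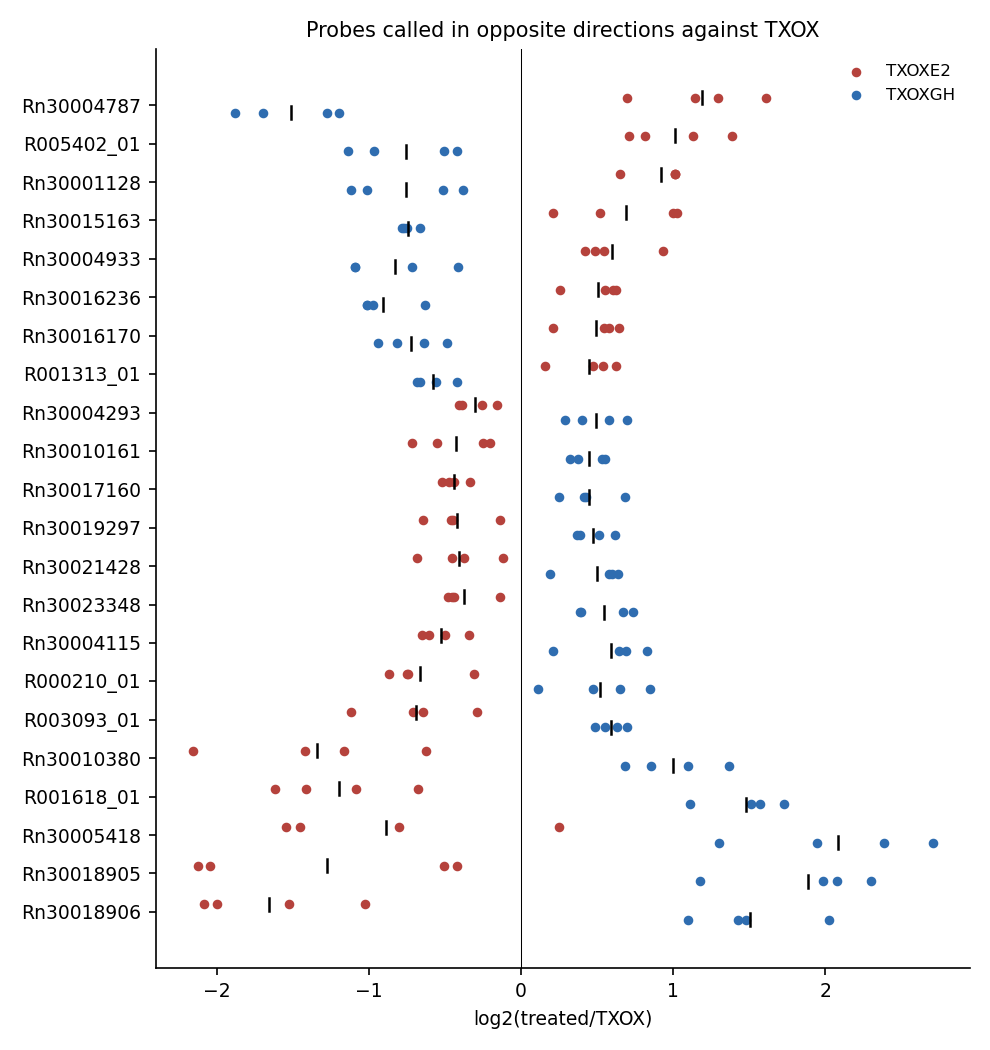
Log2 ratio to TXOX on each TXOXE2 array (red) and TXOXGH array (blue) for the 22 probes called in opposite directions against TXOX after E2 and after GH, with group means as black bars. The upper 8 probes are positive after E2 and negative after GH on every array, and the lower 14 show the reverse, with 1 positive E2 value (0.25, Rn30005418).

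For 11 probes the same direction was called after both hormones with a different size. In 6 of them both hormones were above TXOX and E2 more so. Of these, Rn30019716, Rn30019740, Rn30019674 and Rn30019698 were neighbouring spots of 1 row on the slide. Rn30019674 had log2 ratios of 3.32, 3.02, 2.71 and 3.76 after E2, against 1.57, 1.78, 1.84 and 1.04 after GH, a difference of 1.65 (SE 0.29, limma-adjusted p = 0.00853). In TXOXE2GH livers its mean was 2.56. Rn30026942 was similar, with means of 3.45 after E2 and 1.65 after GH. In 4 probes both were above TXOX and GH more so, of which Rn30018070 had 1.69, 0.73, 0.61 and 0.47 after E2, against 1.88, 2.14, 1.88 and 1.87 after GH. Among these 4, Rn30009441 and R001932_01 stood in the same row of 1 printed block. The remaining probe, Rn30012624, was below TXOX after both and lower after GH, with −0.50, −0.35, −0.31 and −0.22 after E2, against −1.32, −1.19, −1.22 and −1.06 after GH. The probes of this paragraph other than Rn30019674 were named after their values were seen.

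The TXOXE2GH arrays took no part in the contrast. Of the 209 probes, 207 had a value on at least 3 of these arrays, and the TXOXE2GH mean lay nearer to the GH mean than to the E2 mean for 159 of them (76.8%), 60 of 77 higher and 99 of 130 lower probes. For 28 probes it lay beyond the GH mean and for 5 beyond the E2 mean. The probes were chosen for the distance between the E2 and GH means, which bears on where another group lies, and no test of this count was made.

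The place of TXOXE2GH was also read by which hormone had moved the probe further. Among lower probes with the GH mean further from TXOX (78), the median of the means was −0.18 after E2, 1.02 after GH and 0.66 after both hormones, nearer to GH for 63 probes. Among lower probes with the E2 mean further from TXOX (52), it was −0.81 after E2, 0.18 after GH and −0.24 after both, nearer to GH for 36. Among higher probes with GH further from TXOX (29), the medians were 0.22 after E2, −0.86 after GH and −0.60 after both, nearer to GH for 21. Where E2 was further (48), they were 0.93 after E2, −0.11 after GH and 0.12 after both, nearer to GH for 39. The count was a majority of each set. Where E2 had moved the probe further, the median GH means (0.18 and −0.11) lay near TXOX. In these sets a place nearer to GH cannot be told apart from one nearer to TXOX. The share over all probes tested was not counted, so no rule for the combined treatment is read from these counts.

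**Figure D4:**
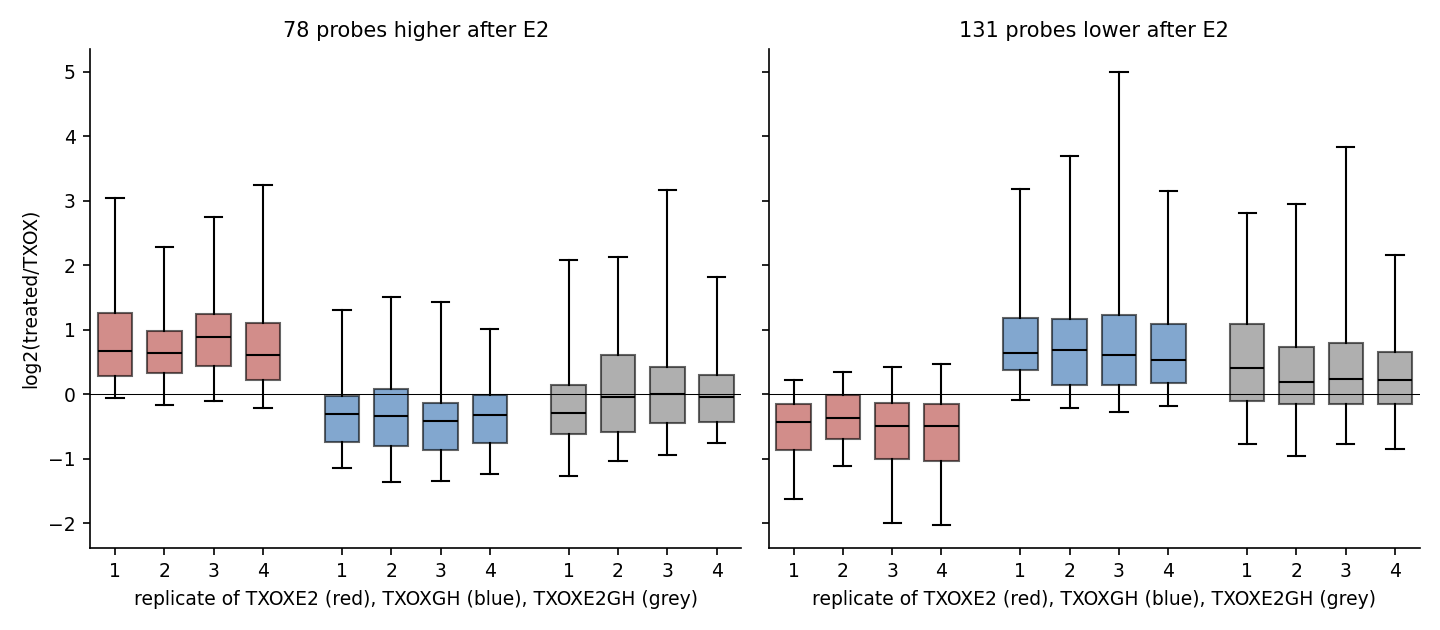
Log2 ratio to TXOX of the 78 probes higher after E2 (left) and the 131 lower after E2 (right) on each array of TXOXE2 (red), TXOXGH (blue) and TXOXE2GH (grey). Boxes span the quartiles with the median, and whiskers the 5th to 95th percentiles. For the lower probes the red medians lie at −0.50 to −0.37, the blue at 0.53 to 0.69 and the grey at 0.20 to 0.40.

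The medians over the probes on single arrays are given as a description, since the E2 and GH arrays chose the probes. The median log2 ratio of the 78 higher probes was 0.61 to 0.88 on single E2 arrays, against −0.41 to −0.30 on single GH arrays, and −0.29 to 0.01 on single TXOXE2GH arrays. For the 131 lower probes it was −0.50 to −0.37 on E2 arrays, against 0.53 to 0.69 on GH arrays. The median SD among the 4 arrays was 0.27 after E2 and 0.26 after GH for the 209 probes, against 0.24 and 0.23 over all probes tested.

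The probes were found in all 48 printed blocks of the slide, with at most 11 in 1 block. Over all probes tested, 7.96% of the variance of the differences lay between blocks. With a loess within each printed block, 152 of the 209 probes were called again in the same direction. Many of them were neighbours on the slide. Among pairs of tested probes in neighbouring columns of the same row, the second was called for 31 of 140 called first probes (22.1%), against 1.11% of all probes tested. Among pairs in neighbouring rows of the same column it was called for 2 of 144 (1.39%). In all 31 pairs within a row the probes differed in the same direction, and in 24 of them the first spot had the larger difference. Over all 13583 tested pairs within a row, called or not, the differences of E2 and GH correlated by 0.34 (Pearson's r), against 0.11 over 13237 pairs within a column. These values are a description across spots that share arrays and blocks.

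In all, 51 of the 209 probes stood in 20 runs of at least 2 called neighbours, and each run had 1 direction. In 15 of the 20 runs the first spot had the largest difference. The longest run lay in block 37, row 21, and covered columns 7 to 12, with differences of −5.72, −5.16, −3.56, −1.54, −2.30 and −1.31. The spots before it, in columns 4 to 6, differed by 0.08, 0.06 and 0.02, and those after it, in columns 13 to 15, by −0.32, −0.75 and −0.47, not called. It starts with Rn30023060 and includes Rn30023084 and Rn30023386, described above as 3 of the largest differences.

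A run of 5 probes higher after E2 in block 27, row 18 had differences of 1.59, 1.53, 1.65, 1.53 and 1.21, and includes Rn30019674. Rn30016143 and Rn30016077 were the 2 spots of a run in block 38, and R001966_01, Rn30001789 and Rn30016299 each stood first in a run of 2. Rn30008458 and R002461_01 had no called neighbour in their row. Whether neighbouring spots measure separate transcripts was not tested. With each run counted once, 178 differences remained, 67 higher and 111 lower after E2.

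**Figure D5:**
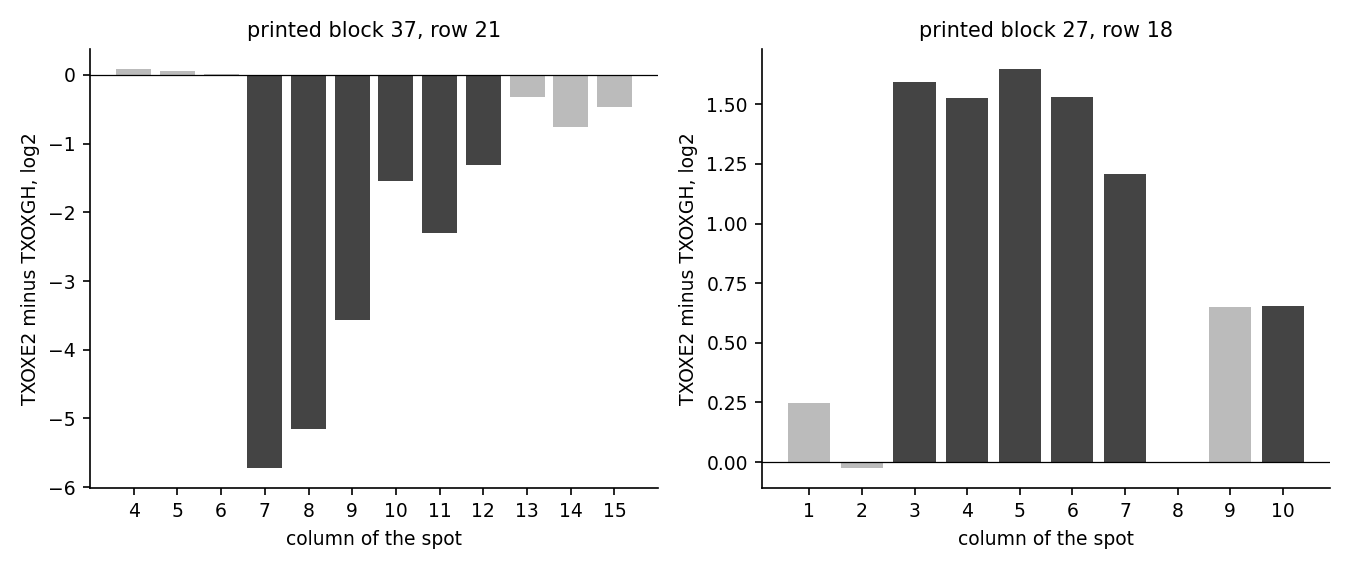
Difference of the mean log2 ratios, TXOXE2 minus TXOXGH, for neighbouring spots of 1 row around the 2 longest runs, by column of the spot. Dark bars are called probes, light bars are not called, and column 8 of the right panel had too few values to be tested. In block 37 the difference is near 0 up to column 6, −5.72 in column 7 and smaller in the columns after it.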

How the data were processed

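Total RNA (5 µg per sample) of individual animals was labelled and hybridised by the authors. The deposited scanner files hold the intensity of each of 27648 spots per array as foreground and local background medians, the percent of pixels brighter than local background by 2 SD, that of pixels at saturation, and the spot flags. A second deposited file, with log2 ratios that the authors had normalized by LOWESS, served as an alternative. Its columns correlated by 0.89 to 0.987 with the ratios computed here, with medians of −0.009 to 0.084, so the direction was taken as the same. The slope on the ratios computed here ranged from 0.702 (TXOXGH replicate 4) to 1.01 (TXOXE2 replicate 2). The scale therefore differed between arrays.

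Background was corrected by normexp (offset 50) and ratios by a global loess per array with limma 3.58.1 in R 4.3.3. Spots with a bad flag and 554 control or empty spots were not used, replicate spots of 12 probes were averaged, and no other filter was applied to dim spots. A linear model, with the mean of each treatment as its terms, was fitted over the 12 arrays (9 residual degrees of freedom), with a variance trend on intensity and Benjamini-Hochberg adjustment over all probes tested. The number of arrays limits the precision. The labels call the arrays biological replicates. The fit was tested on simulated data. Alternatives covered background correction, normalization, filters, the variance model, SAM, replicate blocks and leaving out each array. Per channel bounds used loess and then Aquantile scaling. No sample column was left unmapped.

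The contrast and the rules were chosen with earlier results of these data known. Probes were named by rule: called probes with 8 values, above background in Cy5 or Cy3 on all arrays of at least 1 group, without overlap, the 12 largest in each direction, and all probes called in opposite directions against TXOX. Gene lists and cell type markers could not be applied, since probes are not paired with genes in the sources used here. The files give no slide or scan grouping, and no such batch was tested.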

Additional observations from a re-analysis of the deposited data

Results flagged for a closer look

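In 6 of the 82 groups of 4 arrays examined for the named probes, 1 array stood apart from the other 3 (Dixon's criterion, which chance meets in about 1 in 20 groups). Rn30016298 had 1.5 on E2 replicate 2, against 2.48 to 2.51 on the other E2 arrays. Rn30001128 had 0.65 on E2 replicate 4, against 1.01 on the others. Rn30001359 had −1.91 on GH replicate 3, against −0.56 to −0.42. Rn30016236 had −0.63 on GH replicate 1, against −1.01 to −0.97. Rn30021428 had 0.19 on GH replicate 3, against 0.58 to 0.64. Rn30023348 had −0.13 on E2 replicate 4, against −0.48 to −0.44.

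The effects of E2 and of GH against TXOX were called in opposite directions for 22 probes, with a called difference between the hormones for each. The count was taken among probes chosen for that difference, which favours opposite directions, and was not made over all probes tested.

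Of 306 empty spots, up to 39 on 1 E2 array and up to 112 on 1 GH array had over 50% of their Cy5 pixels above local background. The highest count was that of GH replicate 3, which also had the most probe spots above background (16162).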

How the results depend on the processing

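The 209 probes kept their direction under each alternative that tested them, and 149 to 209 of those tested were called again in the same direction outside the fits that leave out an array. Outside the random replicate block and the fits that leave out an array, the count of probes that differ was 155 to 295. SAM over 35 assignments called 287, with 203 lower after E2. Lower probes made up 62.7% of the calls as reported, 70.7% with SAM and 54.5% in the authors' table. With only the 8 arrays 45 probes were called in opposite directions against TXOX, and with loess within each printed block 14 were. The cause was not tested. When 1 array was left out, the counts were 107 to 158 in all, 37 to 69 higher and 70 to 103 lower, with 73 to 115 of opposite signs and 13 to 19 called in opposite directions. TXOXE2GH lay nearer to GH for 75.6% to 81.7% of the probes in these fits.

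E2 and GH arrays with the same replicate number deviated from their group means with correlations of 0.192, 0.0141, 0.0651 and −0.141, so the numbers were not taken to pair them. Only E2 replicate 1 correlated best with its own number. With a fixed replicate block 295 probes were called, 121 of them higher and 45 in opposite directions against TXOX, and with a random replicate block 322, 128 of them higher and 226 with opposite signs. Counting each run of neighbouring spots once was chosen after seeing the data.

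Of 563 values of the 41 named probes under the alternatives other than leaving out 1 array, 549 stayed called, 14 were no longer called and 0 changed sign. Of 328 values in the fits that each leave out 1 array, 309 stayed called, 19 were no longer called and 0 changed sign. In all 8 of these fits 36 of the 41 named probes were called. Low signal limits dim probes, and 26 lower probes were above background in Cy5 on no E2 array but on at least 1 GH array.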
